A study of Mus musculus with 78 samples.

Results

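The older ERVL long terminal repeats (LTRs) of the mouse genome, annotated as MT2A, MT2B, MT2B1, MT2B2 and MT2C_Mm, were followed copy by copy in single blastomeres of 4-cell and 8-cell mouse embryos. A copy was taken as a member when its name before the copy number started with MT2 and was not MT2_Mm. The tables list a copy only where at least 1 blastomere had it above 0, so every member was detected at least once. In all, 4083 such copies were listed among 461206 repeat copies of any kind. The 4-cell table held 2695 of them among 278683 repeat copies, and the 8-cell table held 2807 among 327627.

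ERVL elements are endogenous retroviruses of class III. Their LTRs carry the promoter and the polyadenylation signal of the element, and most survive in the genome as solitary LTRs after the internal part was lost by recombination. MT2_Mm is the LTR of the youngest mouse group, MERVL, whose RNA peaks at the 2-cell stage, and MT2A to MT2C are its older relatives. Single LTRs of these groups are known to serve as promoters or as parts of exons of host genes in oocytes and cleavage embryos.

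The embryos carried the R26R-Confetti (Brainbow-2.1) reporter and a tamoxifen-inducible CAG-CreER transgene, which is driven by a ubiquitous promoter. Every embryo of both stages was exposed in vitro to 4-Hydroxytamoxifen at the 2-cell stage, when recombination marks the progeny of each blastomere with a fluorescent protein, and was then cultured in KSOM medium. No untreated embryo and no embryo without the transgenes served as a control. The labels give 36 blastomeres from 9 embryos at the 4-cell stage and 31 blastomeres from 4 embryos at the 8-cell stage. The tables held 24 and 26 columns. These are also the numbers of blastomeres to which the labels give a lineage, 24 from 6 embryos and 26 from 4 embryos, but the column names match no sample label, so neither embryo nor lineage was assigned to a column. Blastomeres of 1 embryo share their maternal RNA and are not replicates of a stage, each stage counts here as 1 pooled sample, and no test between the stages was made. Ranges over blastomeres are given in place of errors.

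Values of single repeat copies were in FPKM, fragments scaled by the length of the copy and by the size of the library, from uniquely aligned reads. The library size used as the denominator in each blastomere was recovered from the steps between low values and ran from 6884378 to 16904615 fragments at the 4-cell stage and from 2341593 to 21782101 fragments at the 8-cell stage. One 8-cell blastomere stood apart at 2341593 fragments, and the next lowest held 12593698 fragments. Without that blastomere the median share of older MT2 LTRs among the repeat copies above 0 in an 8-cell blastomere was 0.982%. Older MT2 copies above 0 in every 8-cell blastomere then numbered 35 in place of 29. The same count over all repeat copies rose as well, to 1716 in place of 1242, so the rise was not particular to older MT2 LTRs. Repeat copies above 0 numbered 22238 to 56875 per 4-cell blastomere and 9582 to 64388 per 8-cell blastomere. Of 8 fixed markers of oocytes and cleavage blastomeres, 6 had a median above 1 FPKM at the 4-cell stage and 4 at the 8-cell stage. Of 5 cumulus cell markers 3 were listed in each stage and none had a median above 0, and the highest value of any of them in any blastomere was 3.06 FPKM, for Cyp19a1 at the 4-cell stage.

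Most annotated older MT2 copies gave no uniquely aligned fragment. Copy numbers within each name run separately on every chromosome, and the highest numbers set a lower bound of 34924 annotated copies, so at most 7.72% were listed at the 4-cell stage and at most 8.04% at the 8-cell stage. The same measure over all repeat copies was 5.86% and 6.89%. The names differed widely. Of 1912 or more MT2C_Mm copies, at most 32.3% were listed at the 4-cell stage and 25.1% at the 8-cell stage. For MT2B2 the shares were 12.7% and 11.5%, for MT2B 6.78% and 8.17%, for MT2B1 5.36% and 5.60%, and for MT2A 3.69% and 4.60%. The young MT2_Mm LTR lay above them all at 57.7% and 45.0%. By number of copies, MT2B was the most frequent name at both stages, with 937 and 1129 copies, and MT2C_Mm came next with 617 and 480.

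Older MT2 LTRs made up about 1 in 100 of the repeat copies above 0 in a blastomere, and a larger part of the repeat fragments. A 4-cell blastomere had 172 to 666 of these copies above 0, with a median of 438, and an 8-cell blastomere had 107 to 599, with a median of 381.5. Their share of all repeat copies above 0 was 0.772% to 1.48% at the 4-cell stage (median 1.13%) and 0.749% to 1.35% at the 8-cell stage (median 0.985%). The medians differed by 0.144 percentage points, which was less than the SD of 0.206 points between 4-cell blastomeres and more than the SD of 0.121 points between 8-cell blastomeres. Of the 4-cell blastomeres, 21 of 24 lay within the range of the 8-cell ones. Only 2 of 26 8-cell blastomeres exceeded the 4-cell median, and 17 of 24 4-cell blastomeres exceeded the 8-cell median. Taken as a share of ERVL and MaLR copies alone, the order of the stages turned, with medians of 7.97% at the 4-cell stage and 8.38% at the 8-cell stage.

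Counted in fragments, older MT2 LTRs held 1.41% to 5.41% of the repeat fragments of a 4-cell blastomere (median 3.53%) and 2.40% to 4.53% in an 8-cell blastomere (median 3.28%). The share of fragments thus exceeded the share of copies about 3-fold in both stages. MT2_Mm showed the opposite order. It took a median of 0.944% of the copies and 0.618% of the fragments at the 4-cell stage, and 0.579% and 0.514% at the 8-cell stage. Among detections of copies found in 10 or more of the 50 blastomeres of both stages together, the median was 39 fragments for older MT2 LTRs and 2 for MT2_Mm. Only uniquely aligned reads were counted, and near-identical copies lose the reads they share, so the level of single MT2_Mm copies is uncertain. The part of that loss in these differences was not tested.

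**Figure D1:**
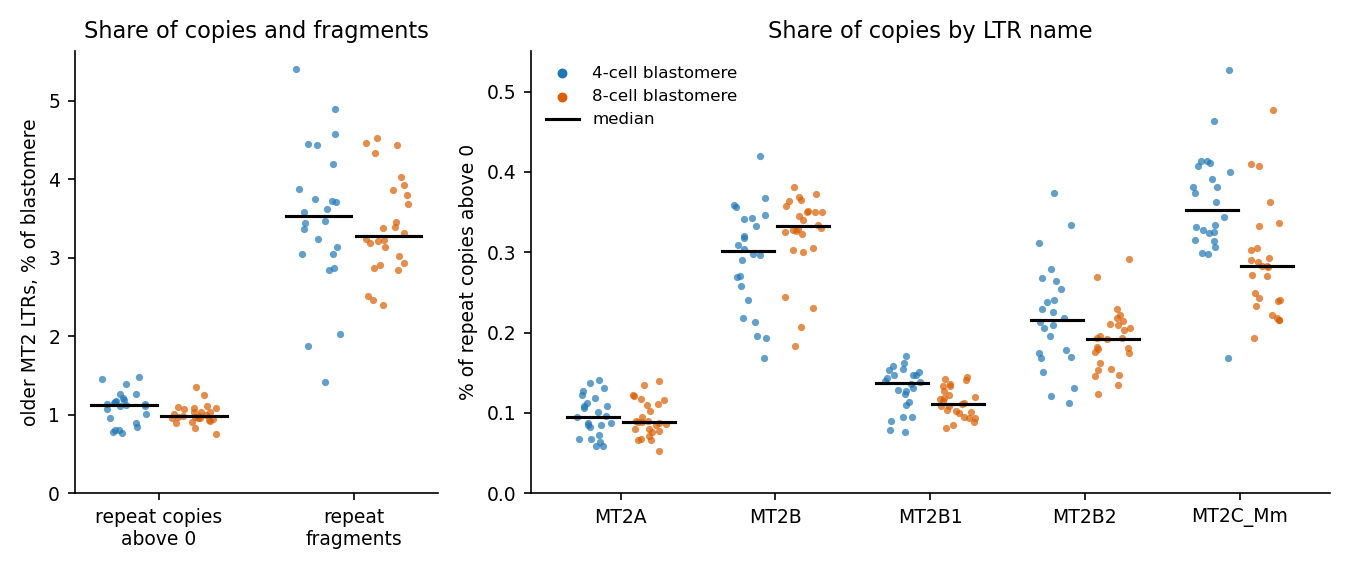
Each point is a blastomere and each black bar the median of 24 4-cell or 26 8-cell blastomeres. The left panel gives older MT2 LTRs as a percentage of the repeat copies above 0 and of the repeat fragments (medians 1.13% and 3.53% at the 4-cell stage), and the right panel splits the percentage of copies by LTR name, with the stages apart most for MT2C_Mm.

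The number of older MT2 copies above 0 moved with the number of all repeat copies above 0 in the same blastomere. Pearson's r was 0.79 and Spearman's rho 0.66 over 24 4-cell blastomeres, and 0.93 and 0.89 over 26 8-cell blastomeres, where both counts come from 1 library and share its depth. For the share of copies r was 0.05 and rho 0.02 at the 4-cell stage, and r was -0.13 and rho 0.05 at the 8-cell stage. Against the library size used as the denominator, the number of older MT2 copies had r 0.05 and rho -0.11 at the 4-cell stage. At the 8-cell stage these were 0.64 and 0.41. When every blastomere was thinned to the 223731 repeat fragments of the shallowest one, the median share was 1.42% at the 4-cell stage and 1.27% at the 8-cell stage.

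The order of the stages differed between the names. MT2C_Mm took a median of 0.353% of the repeat copies at the 4-cell stage and 0.282% at the 8-cell stage, and 23 of 24 4-cell blastomeres exceeded the 8-cell median. MT2B went the other way, at 0.301% and 0.332%, with 21 of 26 8-cell blastomeres above the 4-cell median. MT2B1 had medians of 0.137% and 0.111%, MT2B2 of 0.216% and 0.192%, and MT2A of 0.0954% and 0.0886%. The ranges of the stages overlapped for every name. In fragments, MT2C_Mm had medians of 0.712% and 0.701% of the repeat fragments, with 12 of 24 4-cell blastomeres above the 8-cell median. MT2A had 0.167% and 0.105%, with 21 of 24 above it.

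About 1 in 2 of the listed copies was above 0 in a single blastomere. At the 4-cell stage 1410 of 2695 copies (52.3%) were found in 1 blastomere only and 1285 (47.7%) in 2 or more, close to 45.2% of all listed repeat copies. At the 8-cell stage 1591 copies (56.7%) were found in 1 blastomere and 1216 (43.3%) in 2 or more, beside 40.2% of all repeat copies. Copies above 0 in 12 or more of the 24 4-cell blastomeres numbered 261, 9.68% of those listed beside 7.21% of all repeat copies. Copies above 0 in 13 or more of the 26 8-cell blastomeres numbered 190, or 6.77% beside 4.59%. Copies above 0 in every blastomere numbered 31 of 2695 at the 4-cell stage (1.15% beside 0.499% of all repeat copies) and 29 of 2807 at the 8-cell stage (1.03% beside 0.379%).

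**Figure D2:**
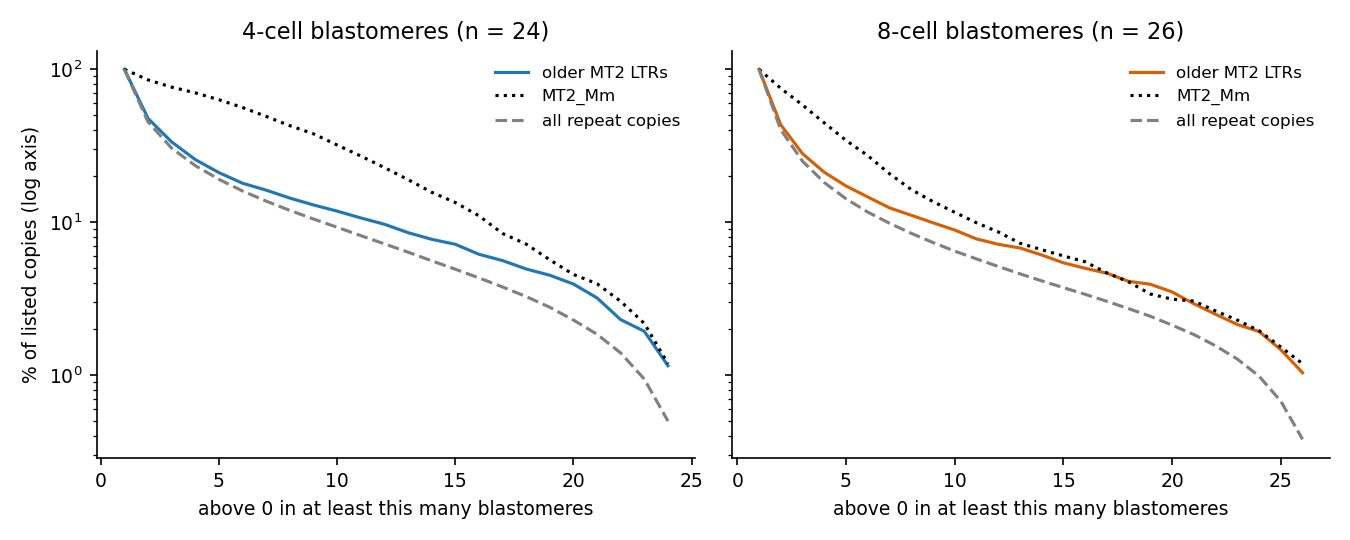
The percentage of listed copies (log axis) that were above 0 in at least the number of blastomeres on the x axis, for older MT2 LTRs, MT2_Mm and all repeat copies in each stage. The curve of older MT2 LTRs runs close to all repeats at 2 blastomeres and ends at 1.15% beside 0.499% in all 24 4-cell blastomeres.

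Sharing was uneven among the names. Of the MT2C_Mm copies listed at the 4-cell stage 63.9% were above 0 in 2 or more blastomeres, and of the MT2B2 copies 54.5%, whereas MT2B1, MT2A and MT2B stood at 42.1%, 40.1% and 38.5%. The 8-cell stage kept MT2C_Mm (61.0%) and MT2B2 (56.4%) at the top and put MT2A last at 28.5%. No MT2A copy was above 0 in every blastomere of a stage. MT2_Mm was shared more often than any older name at the 4-cell stage, with 85.2% of its listed copies in 2 or more blastomeres.

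The lengths of widely shared copies depended on the name. Lengths were recovered from the FPKM steps, and for copies found in 10 or more of the 50 blastomeres of both stages together the median was 525.5 bases for MT2B2 (n = 110), 466 for MT2C_Mm (n = 162), 391 for MT2A (n = 33), 354.5 for MT2B1 (n = 54) and 125 for MT2B (n = 127). For copies found in 5 to 9 of the 50 blastomeres the medians were 408 bases for MT2B2, 463.5 for MT2C_Mm, 344.5 for MT2A, 344.5 for MT2B1 and 118 for MT2B. The difference between these classes was thus greatest for MT2B2, and under 10 bases for MT2C_Mm and MT2B. A longer copy offers more sequence to which a read can align, and the part of that in the sharing was not tested.

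Both stages listed 1419 copies, which were 52.7% of the 4-cell members and 50.6% of the 8-cell members. Over all repeat copies these shares were 52.1% and 44.3%. Among copies above 0 in 2 or more blastomeres of a stage, 762 were common to both stages, 59.3% of the 4-cell and 62.7% of the 8-cell copies, beside 59.3% and 56.7% of all repeat copies chosen in the same way. MT2C_Mm reached 61.1% and 78.5% on the full lists, and MT2A 42.2% and 33.9%. Of the copies found in every blastomere, 21 were common, out of 31 at the 4-cell stage (67.7%) and 29 at the 8-cell stage (72.4%). Over all repeat copies these shares were 46.7% and 52.3%. The 21 copies were 9 MT2C_Mm, 6 MT2B, 5 MT2B2 and 1 MT2B1 copies.

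A few copies carried most of the signal. In a 4-cell blastomere, the 10 copies with the most fragments at that stage held 48.5% to 61.1% of all older MT2 fragments (median 56.0%), and 100 copies held a median of 85.7%. In an 8-cell blastomere the medians were 60.6% and 87.9%. Of the 10 leading copies 9 were the same at both stages. Without those 10 copies older MT2 LTRs still took a median of 1.51% of the repeat fragments at the 4-cell stage and 1.27% at the 8-cell stage. The 10 leading MT2_Mm copies held a median of 52.9% of the MT2_Mm fragments at the 4-cell stage and 67.7% at the 8-cell stage.

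The most heavily used copy by fragments was MT2B1_dup342 of chromosome 10, 345 bases long. It had 503 FPKM in the lowest 4-cell blastomere, 1797 at the median and 2503 in the highest, and 934, 1541 and 3272 FPKM at the 8-cell stage, with medians of 8485.5 and 8245.5 fragments. The ranges overlapped from 934 to 2503 FPKM, and the highest value was in an 8-cell blastomere. MT2B_dup711 of chromosome 11, 587 bases long, had 259 to 1162 FPKM at the 4-cell stage (median 776) and 568 to 1272 at the 8-cell stage (median 841). MT2B2_dup105 of chromosome 18, 576 bases long, had 128 to 917 FPKM at the 4-cell stage (median 468) and 360 to 970 at the 8-cell stage (median 549). For both, every 8-cell blastomere lay above the lowest 4-cell blastomere, and the ranges of the stages overlapped.

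FPKM ranked another copy first. MT2B_dup77 of chromosome 19 had a median of 14034 FPKM at the 4-cell stage and 13802 at the 8-cell stage, but is 20 bases long, with medians of 3591.5 and 4958.5 fragments. FPKM divides by the length of the copy, so a fragment that reaches beyond so short a copy counts in full. Other short copies were also among the leading 10 of each stage by the fixed rule. MT2B_dup71 of chromosome 16, 138 bases long, had medians of 318 and 295 FPKM, and the first MT2B2 copy of chromosome 19, 75 bases long, had 205 and 263 FPKM.

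Other long copies also stood at or above 100 FPKM at the median of both stages. MT2C_Mm_dup61 of chromosome 11 (481 bases) had 87.2 to 745 FPKM at the 4-cell stage (median 482) and 256 to 848 at the 8-cell stage (median 513). MT2B2_dup150 of chromosome 5 (598 bases) had 21.6 to 652 FPKM (median 252) and 176 to 502 FPKM (median 288). MT2B_dup288 of chromosome 12 (539 bases) had medians of 236 and 235 FPKM, and MT2C_Mm_dup50 of chromosome 11 (472 bases) had 169 and 100. MT2C_Mm_dup53 of chromosome 13 (448 bases), which was among the 10 named copies of the 8-cell stage, had 127 and 145 FPKM, and MT2B_dup451 of chromosome 13 (564 bases) 116 and 107.

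**Figure D3:**
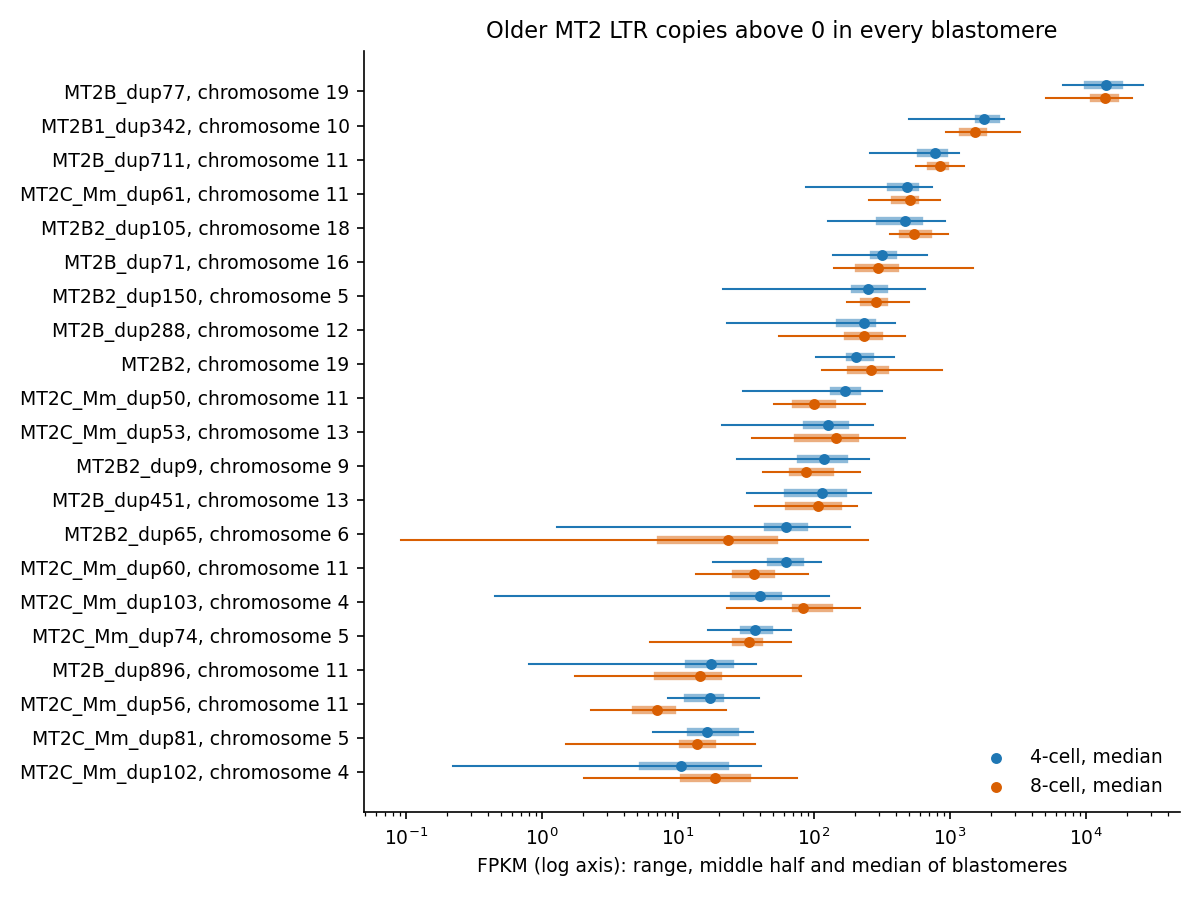
The 21 older MT2 copies above 0 in every blastomere of both stages, with FPKM on a log axis. Thin lines span the lowest to the highest blastomere, thick lines the lower to the upper quartile and points the median, at the 4-cell (n = 24) and 8-cell (n = 26) stage. The ranges of the stages overlap for all 21 copies.

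For the 21 copies above 0 in every blastomere of both stages, the ratio of the 4-cell median to the 8-cell median had a median of 1.08. It was between 1/1.5 and 1.5 for 15 copies, above 1.5 for 4 and below 1/1.5 for 2. The remaining copies of the 39 that were above 0 in every blastomere of at least 1 stage entered through 1 stage only, which favours a high level there, so their differences are a description. Over all 39 copies the 4-cell median was more than 1.5-fold higher for 13 and the 8-cell median for 3. Neither the counts for the 21 copies nor those for the 39 were made over all repeat copies, so they cannot be read as particular to older MT2 LTRs. The 3 copies higher at the 8-cell stage were MT2C_Mm_dup102, dup103 and dup104, which follow each other by number on chromosome 4. Their medians were 10.6, 40.4 and 8.50 FPKM at the 4-cell stage and 18.9, 83.7 and 63.8 FPKM at the 8-cell stage. At the other end was MT2C_Mm_dup25 of chromosome 5, 94 bases long, with a median of 13.7 FPKM (15 fragments) at the 4-cell stage and 1.69 FPKM (2.5 fragments) at the 8-cell stage. MT2C_Mm_dup59 of chromosome 11 had medians of 3.36 and 0.846 FPKM, a ratio of 3.97. MT2B2_dup65 of chromosome 6 had 62.6 and 23.2 FPKM, and MT2B_dup190 of chromosome 9 had 44.8 and 16.9.

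Some of the 18 ubiquitous MT2C_Mm copies had near numbers on the same chromosome, and 5 were alone on theirs. Chromosome 11 held 6, numbered 50, 56, 58, 59, 60 and 61, where the highest MT2C_Mm number on that chromosome was 79. Their levels spanned 0.874 FPKM (dup58) to 482 FPKM (dup61) at the 4-cell median, although their lengths were all 469 to 481 bases. On chromosome 5, apart from the distant dup25, dup74, dup77 and dup81 were each 475 bases long, with 4-cell medians of 36.9, 19.6 and 16.3 FPKM and 8-cell medians of 33.4, 14.4 and 13.8 FPKM. Near-identical neighbours can lose fragments that do not align uniquely, so the level of each copy in such a run is uncertain.

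Copies could also be compared by how many blastomeres had them above 0. A difference of 25 percentage points or more was found with the 4-cell stage higher for 143 of 4083 older MT2 copies (3.50%), beside 2.88% of all repeat copies. The 8-cell stage was higher for 28 copies (0.686%), beside 1.23% of all repeat copies. By name, the 4-cell stage was higher for 42 of 720 MT2C_Mm copies (5.83%), 31 of 609 MT2B2, 25 of 558 MT2B1, 15 of 600 MT2A and 30 of 1596 MT2B copies (1.88%). Of the 28 copies higher at the 8-cell stage, 16 were MT2B, 4 MT2A, 3 MT2B2, 3 MT2C_Mm and 2 MT2B1 copies. Of 1565 MT2_Mm copies, 470 were higher at the 4-cell stage and 1 copy higher at the 8-cell stage.

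**Figure D4:**
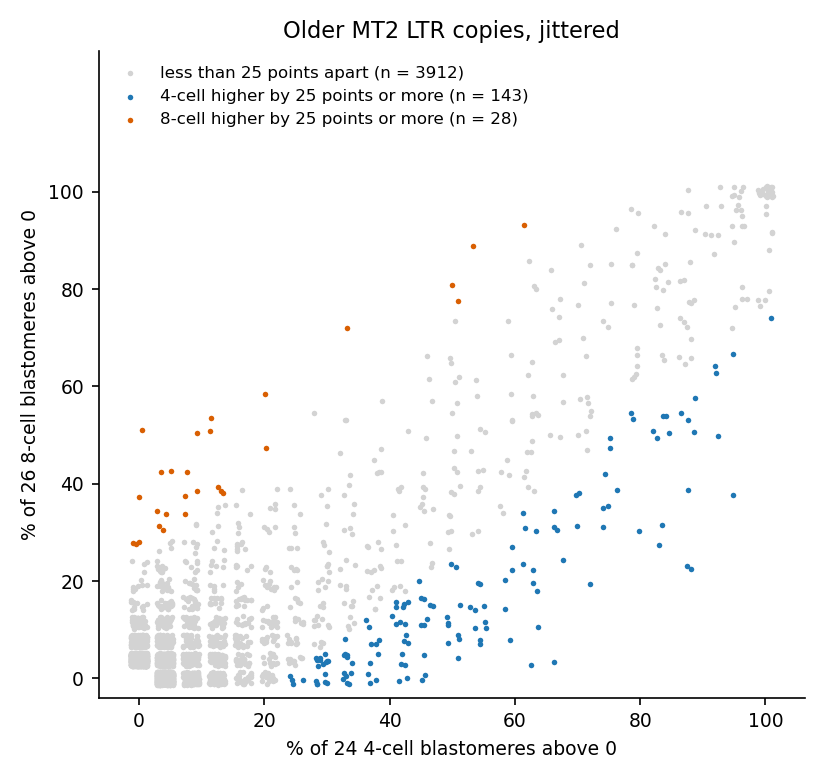
Each point is 1 of the 4083 older MT2 copies, placed by the percentage of 4-cell (x axis) and 8-cell (y axis) blastomeres in which it was above 0, with a small random shift so that points do not cover each other. Of these, 143 copies were higher by 25 points or more at the 4-cell stage and 28 at the 8-cell stage.

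The 5 copies that differed most toward the 4-cell stage were 485 to 659 bases long. MT2B1_dup330 of chromosome 7 was above 0 in 21 of 24 4-cell and 6 of 26 8-cell blastomeres, with a 4-cell median of 7.57 FPKM, and MT2B_dup235 of chromosome 8 had the same counts at 3.46 FPKM. MT2C_Mm_dup123 of chromosome 2 was above 0 in 16 and 1 blastomeres, MT2B2_dup23 of chromosome 7 in 15 and 1, and MT2B_dup446 of chromosome 13 in 23 and 10. The 5 copies that differed most toward the 8-cell stage were short. MT2B_dup21 of chromosome 18 (17 bases) was above 0 in none of the 4-cell and 13 of the 8-cell blastomeres. MT2B_dup43 of chromosome 11 (64 bases) was found in 2 and 13 blastomeres, MT2B_dup468 of chromosome 2 (75 bases) in 3 and 14, and MT2B_dup217 of chromosome 7 (110 bases) in 0 and 10. MT2B2_dup53 of chromosome 19 (125 bases) was above 0 in 8 and 19 blastomeres, with an 8-cell median of 23.4 FPKM. These 10 copies were picked for this difference, and their values are a description.

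A part of the widely detected copies rose and fell from blastomere to blastomere with 1 gene of their own chromosome. For 200 older MT2 copies above 0 in at least 23 of the 45 blastomeres whose column is named in both the repeat and the gene table, FPKM was ranked within each stage and correlated with the ranks of 7616 genes. The best correlation had a median of 0.68, and the best gene lay on the copy's own chromosome for 98 copies (49.0%), whereas an average of 5.40% of the genes lay on that chromosome. At a correlation of 0.8 or more it lay there for 53 of 55 copies (96.4%), and these 53 were 26.5% of the 200. The best gene exceeded the next one by more than 0.1 for 51 of these 53, and 53 different genes were named. The points of each correlation share library and depth, and the best of many genes is a chosen maximum. Blastomeres of 1 embryo are not independent points, and ranks were taken within a stage and not within an embryo. The comparison was not made over all repeat copies, so these shares cannot be read as particular to older MT2 LTRs.

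A gene chosen in the blastomeres of 1 stage was therefore examined in the other stage. Of the genes that reached 0.8 in the 4-cell blastomeres, 58 lay on the copy's chromosome, and the same pairs had a median correlation of 0.87 in the 8-cell blastomeres. Another 51 lay on other chromosomes, and their median correlation in the 8-cell blastomeres was 0.08. Chosen in the 8-cell blastomeres, 55 pairs on 1 chromosome had a median of 0.91 in the 4-cell blastomeres, and 57 pairs across chromosomes had 0.07. A correlation of 0.5 or more in the other stage was found for 50 of 58 and 50 of 55 pairs on 1 chromosome, and for 6 of 51 and 5 of 57 pairs across chromosomes.

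**Figure D5:**
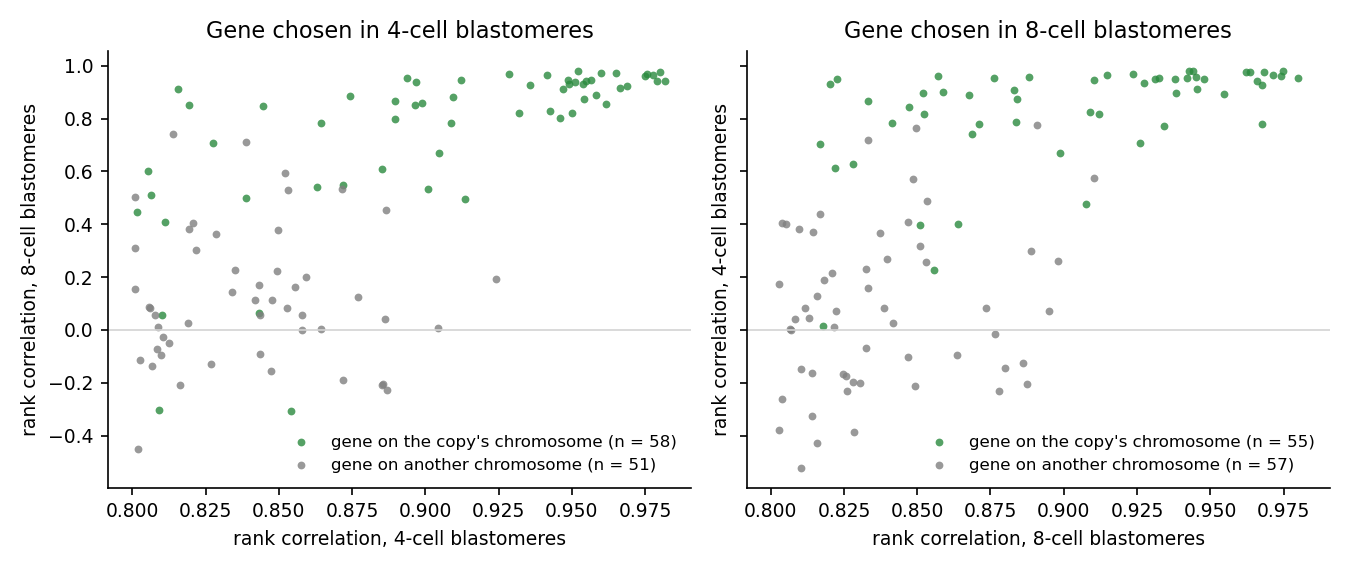
Rank correlation over blastomeres between an older MT2 copy and the gene that followed it best, in the stage where the gene was chosen (x axis, 0.8 or more) and in the other stage (y axis). Pairs on 1 chromosome (green) have medians of 0.87 and 0.91 in the other stage, and pairs across chromosomes (grey) 0.08 and 0.07.

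The place along the chromosome was alike as well. The tables give no coordinates for a copy, and its number as a percentage of the highest number of that name on the chromosome was used in place of one. For the 53 pairs this differed from the place of the gene's start on its GRCm38 chromosome by a median of 3.96 percentage points, and by 10 or less for 45 pairs. Over all compared genes of the same chromosomes the median was 24.5 points. Whether a copy lies within an exon of the gene, so that a fragment could enter both tables, was not tested, because the positions of the copies were not available here.

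MT2B2 copies were frequent among these pairs. The 53 copies were 20 of 43 compared MT2B2 copies (46.5%), 5 of 11 MT2A, 8 of 20 MT2B1, 7 of 45 MT2B (15.6%) and 13 of 81 MT2C_Mm copies. They included 16 of the 39 copies above 0 in every blastomere of a stage. Among the 138 MT2_Mm copies compared in the same way, 12 reached 0.8, of which 11 did so with a gene of their own chromosome.

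MT2B2_dup150 of chromosome 5 followed Cdk2ap1, a CDK2-associated cell cycle gene (chr5:124345439-124354628, GRCm38), with a correlation of 0.97. An MT2B2 LTR is known to act as the promoter of a shortened Cdk2ap1 isoform in mouse preimplantation embryos, and whether dup150 is that LTR was not tested. The copy had medians of 252 and 288 FPKM and the gene 266 and 312 FPKM at the 4-cell and 8-cell stage. Their ranges were also alike, 21.6 to 652 against 35.8 to 616 FPKM in 4-cell blastomeres, and 176 to 502 against 187 to 537 FPKM in 8-cell blastomeres. The level per kilobase of the LTR was thus about that of the gene.

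MT2B1_dup342, the copy with the most fragments, followed Rpl41, which encodes a small ribosomal protein (chr10:128548110-128549168), with a correlation of 0.97. The gene had medians of 2479 and 2020 FPKM, beside 1797 and 1541 FPKM for the copy. The next best gene reached 0.91, so Rpl41 stood out less here than the best gene did for most pairs. The 20-base MT2B_dup77 followed Stip1, a co-chaperone of Hsp70 and Hsp90 (chr19:7020696-7040026), with a correlation of 0.96, and the next best gene reached 0.56. Stip1 had medians of 1330 and 1217 FPKM, well below the 14034 and 13802 FPKM of that short copy. MT2B2_dup105 followed Fbxo15, an F-box gene known as a marker of pluripotent cells, with a correlation of 0.96, and MT2B_dup711 followed the predicted gene Gm11517 (0.93).

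MT2B_dup288 followed Ppm1a, a protein phosphatase gene (chr12:72761211-72799819), with a correlation of 0.95 and medians of 236 and 235 FPKM, beside 385 and 427 FPKM for the gene. MT2B1_dup335 of chromosome 6 followed Tead4, a transcription factor needed for trophectoderm (chr6:128227143-128300813), with 0.94. Copy and gene had 4-cell medians of 48.8 and 47.1 FPKM and 8-cell medians of 67.8 and 70.6 FPKM. MT2B2_dup94 of chromosome 2 followed Ube2e3, which encodes a ubiquitin-conjugating enzyme, with 0.86, at copy medians of 70.2 and 48.6 FPKM and gene medians of 217 and 137 FPKM. In the 4-cell blastomeres alone its best gene was Thoc7 of chromosome 14 (0.89), with Ube2e3 at 0.83. In these pairs the copy and the gene had the same order of the stages, except for Ppm1a.

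The consecutive copies MT2C_Mm_dup102, dup103 and dup104 on chromosome 4 followed Pramel4 (0.81), Gm13102 (0.88) and Pramel5 (0.87), which lie in the Prame-like gene cluster of that chromosome. These genes were the best in both stages together and in the 8-cell blastomeres. In the 4-cell blastomeres alone dup103 kept Gm13102, whereas the best gene was Snrpg of chromosome 6 for dup102 (0.85) and Dmac1 of chromosome 4 for dup104 (0.81), with Pramel4 and Pramel5 at 0.78 each. The medians of these genes were 31.7, 27.2 and 30.8 FPKM at the 4-cell stage and 67.8, 66.9 and 201 FPKM at the 8-cell stage, so the genes, like the copies, were higher at the 8-cell median. MT2B1_dup300 of chromosome 3 followed Tdpoz4, a gene with a speckle-type POZ domain (0.95), with gene medians of 42.1 and 26.8 FPKM and a lower copy median at the 8-cell stage (6.05 FPKM) as well. MT2C_Mm_dup108 of chromosome 2 followed Cst7, a cystatin gene (0.97), and MT2B2_dup50 of chromosome 16 followed Bex6 (0.95). The genes named in these pairs, and the copies MT2C_Mm_dup108 and MT2B2_dup50, were chosen after their values were seen.

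Some of the strongest copies had no such partner over both stages together. MT2C_Mm_dup61 of chromosome 11 was followed best by Rps20, a ribosomal protein gene of chromosome 4, at 0.85, with the next best gene at 0.83. MT2B_dup71 of chromosome 16 reached 0.66 with Lyar, MT2C_Mm_dup50 of chromosome 11 reached 0.78 with Tomm22 and MT2C_Mm_dup53 of chromosome 13 reached 0.72 with Rps4l, each a gene of another chromosome. In the 4-cell blastomeres alone the best gene of MT2B_dup71 was Rrn3 of its own chromosome at 0.81, and that pair had 0.41 in the 8-cell blastomeres. Of the 39 ubiquitous copies, 23 had their best gene on their own chromosome at any correlation.

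Genes that act on ERVL LTRs or accompany their activity were described from a list of 16, of which 15 were listed in the tables. The co-repressor Trim28 had medians of 59.8 FPKM at the 4-cell and 121 FPKM at the 8-cell stage. Among the H3K9 methyltransferases Setdb1 was at 6.14 and 8.32, Ehmt1 at 9.04 and 5.68 and Ehmt2 at 6.17 and 4.85 FPKM, and the histone demethylase Kdm1a was at 12.3 and 16.2 FPKM. The chromatin assembly factor subunits Chaf1a and Chaf1b were at 8.29 and 54.8 FPKM at the 4-cell stage and at 5.01 and 44.3 FPKM at the 8-cell stage. The remaining repressors were Rif1 at 66.3 and 62.9, Atrx at 24.6 and 20.9 and Uhrf1 at 1.48 and 2.36 FPKM. The activators Dppa2 and Dppa4 were high, with medians of 579 and 537 FPKM at the 4-cell stage and 461 and 426 FPKM at the 8-cell stage. Zscan4c, Zscan4d and Zfp352, which mark the 2-cell stage, had medians of 0 at both stages, and Duxf3 was not listed. The ranges of the 2 stages overlapped for each listed gene.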

How the data were processed

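Single-blastomere RNA was amplified as full-length cDNA and sequenced in read pairs. The authors aligned reads to mm10 with STAR 2.5.1b, kept unique alignments, counted them with HTSeq on RefSeq genes and single RepeatMasker copies, and deposited FPKM per gene and per copy, 1 table per stage. How counts were scaled to FPKM is not given in the sources used here. Reads that align to several near-identical copies were dropped, which lowers the values of such copies. The stage of each table was taken from the study's text, where the number of listed genes identifies it, and all 100 columns of the 4 tables were used, of which 5 in the 8-cell tables are named NA. No 2 of the 50 repeat columns were identical.

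From these values the denominator of each column was computed as the step shared by the inverses of low values. Copy lengths and fragments were the smallest whole numbers that gave the FPKM, with a tolerance of 0.0005 fragments that widened for high counts. This was tested on simulated data, where 10 of 10 denominators and 99.2% of 2000 lengths were recovered. Lengths were found for all 907 older MT2 copies above 0 in 5 or more blastomeres. For copies in fewer they are lower bounds. A copy above 0 FPKM counted as detected, and 0 can be missed RNA. Fragments are not independent molecules, because no molecular identifiers were counted.

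The members and gene lists were chosen with earlier results of these data known. Copies named in the text were the 10 above 0 in the most blastomeres of each stage (ties by the higher median), all those above 0 in every blastomere of a stage, and the 5 with the largest difference in detection in each direction. The 25-point threshold, thinning, the comparisons of fragments and of genes, and the counts without single blastomeres were added after seeing the data. Results were recomputed under other detection thresholds, denominators, depths and sets of blastomeres. Software was Python 3.11.15, numpy 2.4.6, pandas 2.3.3 and scipy 1.17.1.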

Additional observations from a re-analysis of the deposited data

How the results depend on the processing

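No paired analysis was possible because the table columns could not be matched to the embryo and replicate numbers of the labels by name. A match by column order or by library size was not attempted, so no summary per embryo was made. Across 69 recomputed values, 50 moved by less than the spread between blastomeres (1 SD) or, for counts, by less than 1.5 times. For the stage differences this is a wide limit. The SD was 0.206 points for a difference of 0.144 points in the share, and 121 for a difference of 56.5 copies. The tally therefore does not show that the stage differences are stable. The 4-cell minus 8-cell difference in the median share of copies changed sign in 1 of them, to -0.408 points with ERVL and MaLR copies as the denominator, where the medians were 7.97% and 8.38%. MT-type MaLR, ORR1, MERVL-int and MT2_Mm copies, which are part of that denominator, leaned more to the 4-cell stage than older MT2 LTRs did. The part of each group in the change of sign was not tested. The median shares also moved when measured by summed FPKM (2.28% and 2.12%), by fragments (3.53% and 3.28%), by fragments without the 10 leading copies (1.51% and 1.27%), after thinning to the shallowest blastomere (1.42% and 1.27%, with the 8-cell copy number at 269.9) and, at the 8-cell stage, with at least 2 fragments required (1.16%). Leaving out each blastomere in turn kept the medians within 1.12% to 1.13% and 0.982% to 0.989%. The older MT2 copies above 0 in every blastomere then numbered 31 to 43 and 29 to 35. Without the blastomere with the fewest copies they numbered 37 at the 4-cell stage and 35 at the 8-cell stage. Over all repeat copies the same step gave 1539 in place of 1391 and 1716 in place of 1242. By construction, 762 copies were common to both stages when 2 blastomeres of each were required, and the names alone held 600 MT2A, 1596 MT2B, 558 MT2B1, 609 MT2B2 and 720 MT2C_Mm copies. The pairs of copy and gene at 0.8 or more on 1 chromosome numbered 53 with both stages, 58 in 4-cell blastomeres and 55 in 8-cell blastomeres, and 39 of the 53 kept the same best gene in each stage alone. The number of embryos behind each table, and the use of columns that were not assigned to embryos, limit every comparison of the stages.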

Other observations

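Listed older MT2 copies were spread over all chromosomes. As a share of the lower bound of annotated copies, they ranged from 3.77% on chromosome Y (6 copies) and 8.28% on chromosome X to 14.7% on chromosome 11 (297 copies). Among all listed repeat copies of a chromosome, they made up 0.743% on chromosome 9 to 1.19% on chromosome 13. Of the 39 copies above 0 in every blastomere of a stage, 8 lay on chromosome 11 and 5 on chromosome 5.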
